A study of Mus musculus with 18 samples.

Results

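The long-tail and short-tail RNA fractions of mice carrying the TgCPEB4Δ4 transgene were compared within each animal. In both fractions the tissue was cortex and striatum, dissected together at 6 weeks of age. Per the labels, total RNA (INPUT) was bound to poly(U)-agarose, RNA eluted at 90% formamide (ELUTED) was enriched for long poly(A) tails, and RNA released at 25% formamide (WASH) was enriched for short ones. The comparison used 6 of the 18 arrays of the series, the ELUTED and WASH arrays of 3 transgenic mice. Their INPUT arrays and the 9 arrays of 3 control (CTRL) mice of the same age served as references. The transgene encodes a form of CPEB4 without a microexon. The sources used here do not give the promoter that drives it, nor the strain and sex of the mice. The labels name no deletion of the endogenous Cpeb4 gene and no agent in either genotype.

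A poly(A) tail is added to most messenger RNAs in the nucleus and is shortened by deadenylases in the cytoplasm. Cytoplasmic poly(A)-binding proteins bind the tail, and removal of the tail precedes decay of many mRNAs. CPEB proteins bind U-rich elements near the 3′ end of target mRNAs and can lengthen or shorten their tails, and in neurons they are known for translation at synapses. Poly(U) chromatography sorts RNA by how tightly its adenosines pair with the resin, so it reports the tail of a transcript as present in a high- or low-stringency fraction and gives no number of adenosines.

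The measure throughout is the tail ratio, the log2 ELUTED value minus the log2 WASH value of 1 probe set in 1 mouse. A positive ratio means a larger share of the long-tail array, a negative one a larger share of the short-tail array. A probe set was called where limma's moderated test of the mean of the 3 mice against 0 gave an adjusted p under 0.05. Of 45037 probe sets that are no controls, 27022 passed the filter on low values, and 14521 of these were called, which is 53.7%. Toward long tails 5442 were called (20.1%) and toward short tails 9079 (33.6%). A ratio of at least 2-fold was called toward long tails for 573 probe sets (2.12%) and toward short tails for 987 (3.65%). In 14276 of the 14521 called probe sets all 3 mice had the same sign. Since most probe sets were called, the results below are given mainly by the size and rank of the ratio.

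The split between the directions depended on the scaling of the arrays. Of the calls, 37.5% were toward long tails with the deposited values, 50.5% after each mouse was centred on its own median, and 50.9% after a further quantile normalization. Equal amounts of cDNA were hybridised from each fraction and the arrays had been normalised, so 0 marks equal array values and not equal tail length. The deposited arrays still differed. In mice 1, 2 and 3 the SD of the log2 values was 1.85, 1.82 and 1.91 in ELUTED, against 1.99, 2.00 and 2.00 in WASH. The medians were 6.54, 6.53 and 6.48 in ELUTED, against 6.44, 6.42 and 6.42 in WASH. The part of these differences in the ratios was not tested. The median ratio over probe sets was −0.11. Over genes it was −0.17 with the deposited values, −0.07 after centring and −0.02 after the further quantile normalization, so the position of a gene list is read relative to all genes.

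Each of 11974 genes was represented by its brightest probe set on average, and 49.7% of the genes were called. Toward long tails 1554 genes were called (13%) and toward short tails 4399 (36.7%). Only 28 genes were called with at least a 2-fold ratio toward long tails (0.234%), against 416 toward short tails (3.47%). Of all genes, 10% lay below −0.75 and 10% above 0.37. The distribution was drawn out on the short-tail side, with 1% of genes below −1.27 and 1% above 0.77.

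The 3 mice agreed in order but not in spread. The SD of the tail ratio over probe sets was 0.614 in mouse 1, 0.621 in mouse 2 and 0.388 in mouse 3. Across genes, which are not independent replicates, the ratios correlated at 0.889 between mice 1 and 2, at 0.739 between mice 1 and 3 and at 0.76 between mice 2 and 3. Without mouse 1, 681 genes were called toward long and 2861 toward short tails. Without mouse 2 the counts were 542 and 2574, and without mouse 3 they were 2309 and 5178. The 3′ minus 5′ signal of the actin control probe sets was −0.74, −0.75 and −0.69 in the ELUTED arrays of mice 1, 2 and 3, against −0.47, −0.53 and −0.66 in their WASH arrays. For the transferrin receptor control it was −0.41, −0.16 and −0.63 in ELUTED, against −0.86, −0.70 and −0.86 in WASH, and for pyruvate carboxylase 0.19, 0.025 and 0.50 in ELUTED, against 0.35, 0.015 and 0.28 in WASH. The 2 fractions were closest in mouse 3 by the actin and transferrin receptor controls and furthest apart in mouse 3 by pyruvate carboxylase. The part of these differences in the smaller ratios was not tested.

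**Figure D1:**
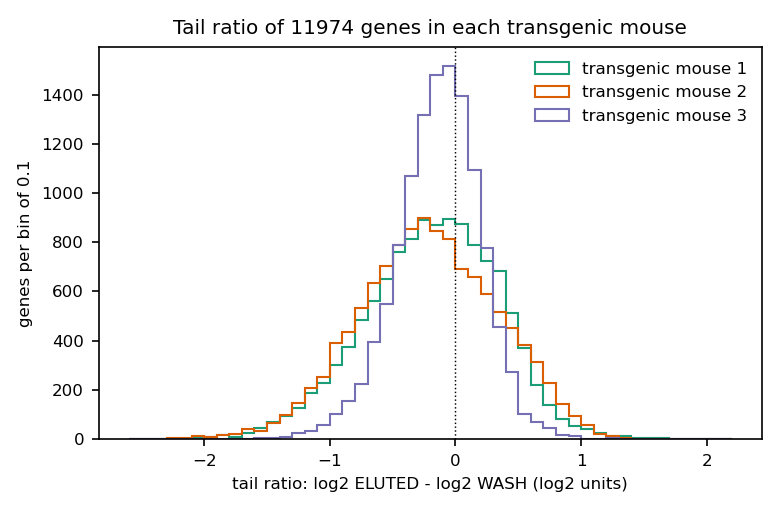
Number of genes (of 11974) per bin of 0.1 in the tail ratio (log2 ELUTED minus log2 WASH), with 1 outline for each transgenic mouse and a dotted line at 0. Mouse 3 is the narrowest, and in all 3 mice the bulk of the genes lies just below 0.

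At the short-tail end stood genes of varied function. S100a6, which encodes a small calcium-binding protein, had log2 values of 7.03, 6.18 and 5.97 in the ELUTED arrays of mice 1, 2 and 3, against 9.54, 7.95 and 7.65 in their WASH arrays. Its ratio was −1.99 ± 0.45 (SD, n = 3, adjusted p = 8.9e-06), which is 3.96-fold, the lowest of all genes. S100a6 was above the brightest nonspecific control probe set in 2 of 3 ELUTED arrays, so its ratio is limited by background in the remaining one. Gmfb, an actin-regulating factor abundant in brain, had 6.41, 6.61 and 6.47 in ELUTED, against 8.43, 8.47 and 8.01 in WASH. The ratio of Gmfb was −1.81 ± 0.25 (SD, n = 3).

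The other genes among the 10 lowest ran from −1.87 to −1.75. They were Iftap, an intraflagellar transport factor, Tmem167, a small Golgi membrane protein, the cortexin Ctxn2, the ribosomal protein paralog Rpl22l1 and the endoplasmic reticulum peroxiredoxin Prdx4. Crh, the corticotropin-releasing hormone, Pnp, a purine salvage enzyme, and Nhp2, a subunit of the particles that pseudouridylate RNA, completed them. Crh varied most, with ratios of −1.91, −2.44 and −0.96. Crh and Prdx4 were above the nonspecific controls in only 1 of 3 ELUTED arrays and Rpl22l1 in 2 of 3, so background limits their ratios.

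At the long-tail end the ratios were smaller. Lrtm1, a leucine-rich repeat membrane protein, had 8.04, 7.83 and 7.01 in ELUTED, against 6.32, 6.16 and 6.22 in WASH. With a ratio of 1.40 ± 0.53 (SD, n = 3, adjusted p = 4.5e-05), or 2.63-fold, it was the highest gene. Zmynd8, a reader of histone marks, had 10.92, 10.59 and 10.34 in ELUTED, against 9.28, 9.34 and 9.29 in WASH, a ratio of 1.31 ± 0.30 (SD, n = 3). Sorbs2, an adaptor of the actin cytoskeleton, stood at 9.49, 9.57 and 9.37 in ELUTED, against 8.13, 8.49 and 8.27 in WASH. Its ratio was 1.18 ± 0.16 (SD, n = 3).

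The remaining genes of the 10 highest lay between 1.16 and 1.31. They held the imprinted antisense RNA Kcnq1ot1, the zinc finger gene Zfp248, the coiled-coil gene Ccdc30, the keratin Krt20, the pseudogene Speer8-ps1 and 2 genes known only by clone names, 4931430N09Rik and C920021L13Rik. No gene of the energy, ribosome or proteasome lists was among them.

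Genes were then grouped into 52 lists by function or cell type, and the lists spread over the whole range. The median ratio was below 0 in 45 lists and above 0 in 7, and 14 lists had no member called toward long tails. In 4 lists more members were called toward long than toward short tails. Of all genes, 13% were called toward long and 36.7% toward short tails, and the counts below are to be read beside these shares. For each list the members among the 1198 lowest or the 1198 highest genes, out of 11974, were also counted.

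**Figure D2:**
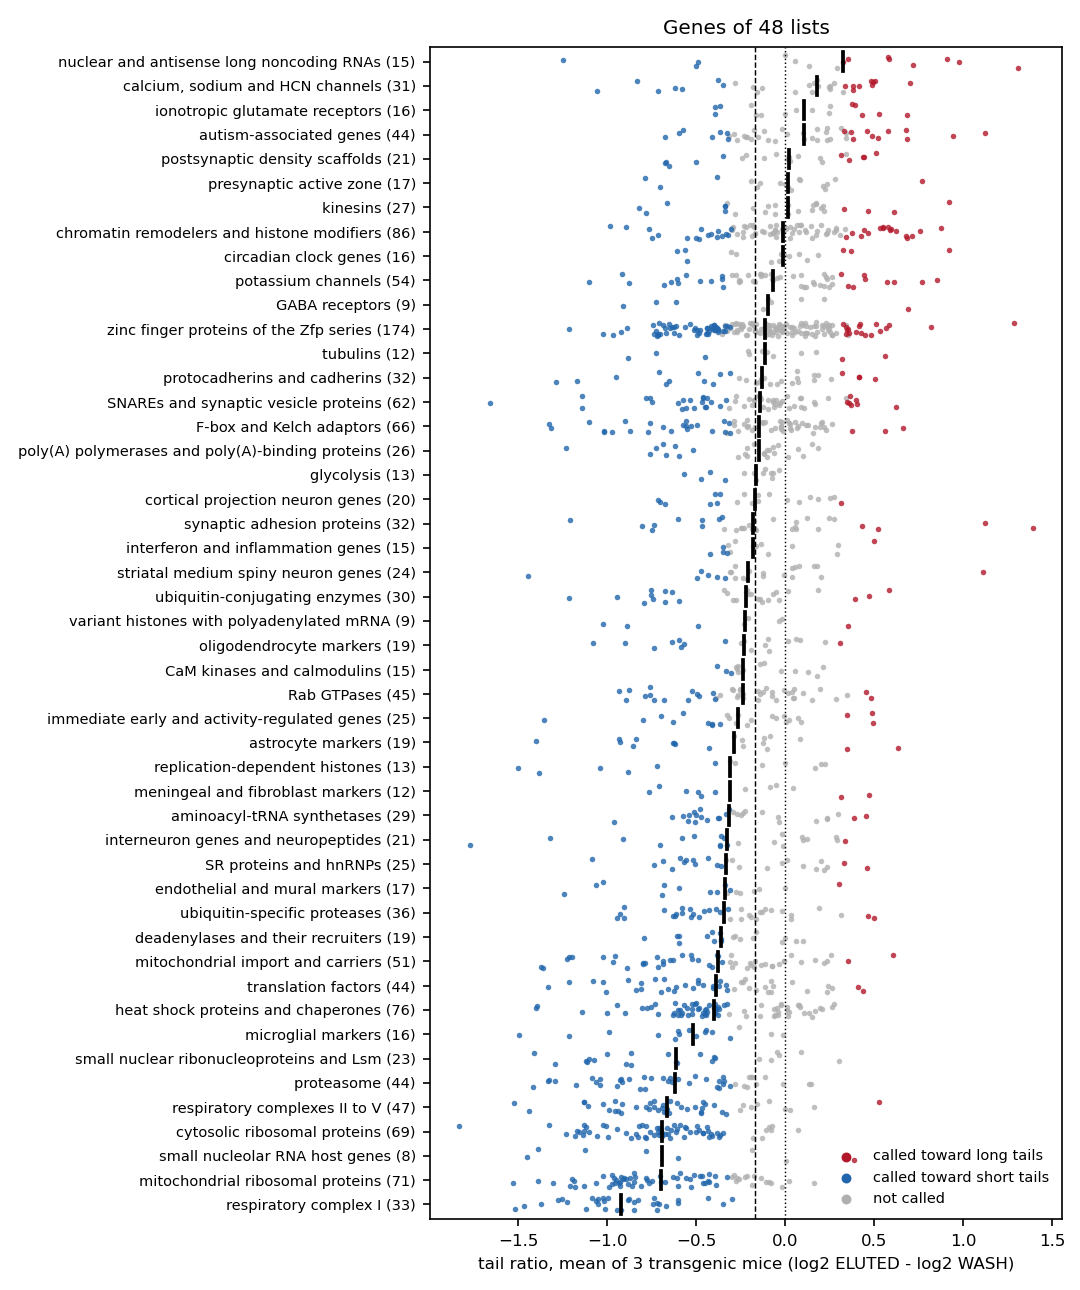
Tail ratio (log2, mean of 3 transgenic mice) of each gene in the 48 lists with at least 8 tested members, with the number of genes in brackets, red points for calls toward long tails, blue for calls toward short tails and grey for genes not called. Black bars are list medians, the dashed line is the median of all genes (−0.17) and the dotted line is 0. Respiratory complex I lies at the bottom at −0.92 and the long noncoding RNAs at the top at 0.33.

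Among the 52 lists, respiratory complex I had the lowest median. Complex I oxidises NADH and passes its electrons to ubiquinone, and all 33 of its listed genes that the array carries were tested. All 33 were called toward short tails, where 36.7% of all genes were. Their median ratio was −0.92, with −0.97, −1.02 and −0.72 in mice 1, 2 and 3, and 22 of the 33 were among the 1198 lowest genes. The members ran from −1.52 to −0.30.

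Ndufb5, an accessory subunit of the membrane arm, had 8.48, 8.48 and 9.20 in ELUTED, against 10.10, 10.21 and 10.40 in WASH. Its ratio was −1.52 ± 0.28 (SD, n = 3, adjusted p = 1e-05), or 2.87-fold. Its total RNA stood at 9.70, 9.95 and 9.58, below the WASH values. Ndufa1 at −1.47 and Ndufc2 at −1.28 followed.

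Complexes II to V, which carry electrons on to oxygen and make ATP, had a less extreme median. Of 47 tested genes, 38 were called toward short tails and 1 toward long tails, with a median of −0.66 and 16 among the 1198 lowest genes. Uqcrb, a subunit of complex III, had 7.73, 7.57 and 8.47 in ELUTED, against 9.39, 9.16 and 9.79 in WASH, a ratio of −1.52 ± 0.18 (SD, n = 3, adjusted p = 9e-06). The ATP synthase genes Atp5e and Atp5g1 stood at −1.44 and −1.11.

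The exceptions in the respiratory chain were isoforms best known from other tissues. Cox8c, known from testis, was called toward long tails at 0.53 ± 0.45, with mouse 3 at 0.01. Cox4i2, known from lung, stood at 0.16 ± 0.17 and Cox6a2, known from muscle, at 0.03 ± 0.22, and neither was called.

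**Figure D3:**
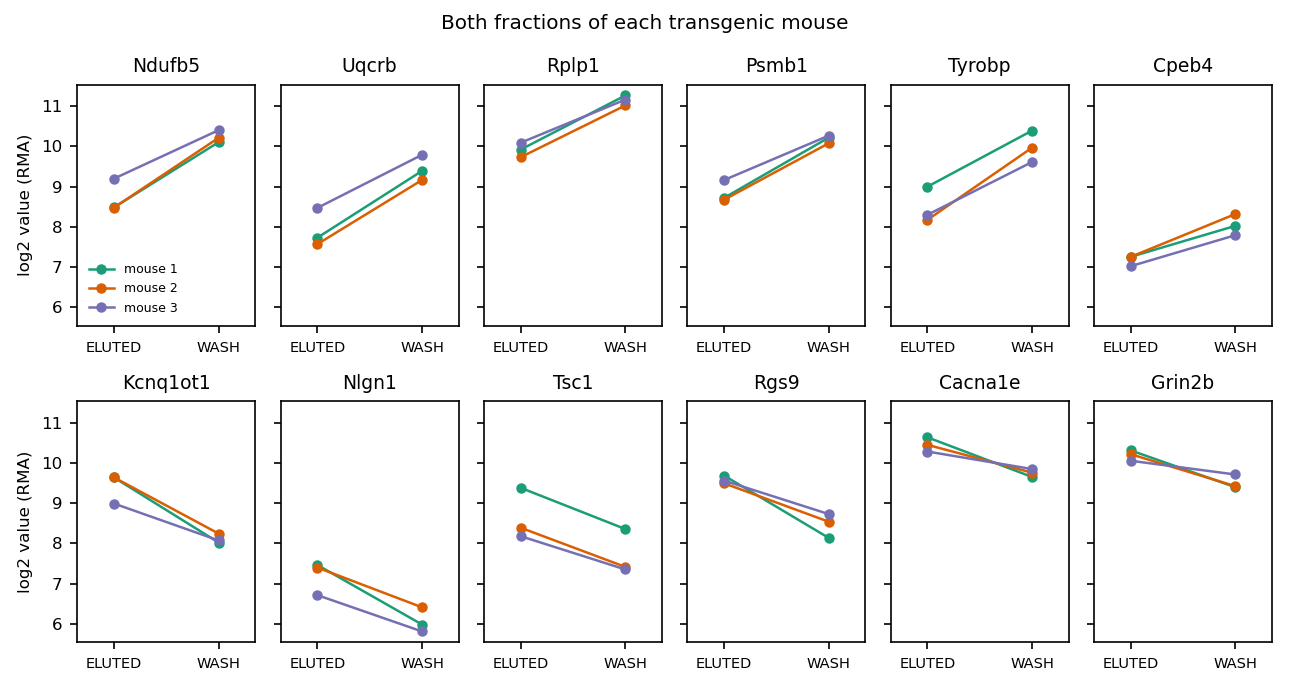
Log2 values (RMA) of 12 genes in the ELUTED and WASH arrays of each transgenic mouse, joined by a line for each mouse. The upper genes are higher in every WASH array than in the same mouse's ELUTED array, with Ndufb5 at 8.48, 8.48 and 9.20 in ELUTED, and the lower genes are higher in ELUTED.

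Genes for making proteins in the cytosol and in mitochondria lay at nearly the same place. Of 69 cytosolic ribosomal protein genes, 62 were called toward short tails and 0 toward long tails, and their median was −0.69. Of 71 mitochondrial ribosomal protein genes, 55 were called toward short tails and 0 toward long tails, and their median was −0.70. The 1198 lowest genes held 26 of the 69 and 34 of the 71.

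Rplp1, an acidic protein of the large subunit stalk, had 9.92, 9.73 and 10.09 in ELUTED, against 11.26, 11.01 and 11.16 in WASH, a ratio of −1.23 ± 0.14 (SD, n = 3, adjusted p = 1.7e-05). The stress-inducible paralog Rps27l stood at −1.33. Rpl28 was the only tested cytosolic member above 0, at 0.07 ± 0.22, and was not called. Ribosomal protein genes have many processed pseudogenes, and probe sets may read more than 1 of them.

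Among the mitochondrial ribosomal proteins, Mrps24 had 7.17, 7.35 and 8.00 in ELUTED, against 8.50, 9.03 and 9.16 in WASH. Its ratio was −1.39 ± 0.27 (SD, n = 3). Mrps14 and Mrpl57 stood at −1.31 and −1.21, while Mrpl47 at 0.16 ± 0.15 and Mrps11 at 0.02 ± 0.33 were the 2 members above 0 and were not called.

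Cytosolic translation factors were more mixed, with 26 of 44 called toward short tails, 2 toward long tails and a median of −0.39. Eif1ax, which scans for the start codon, and the eIF3 subunits Eif3k and Eif3i had the smallest p among them, at −1.34, −1.21 and −1.03. The 2 genes called toward long tails were the cap-binding factor Eif4e at 0.44 ± 0.26 and the repressor that binds its protein, Eif4ebp1, at 0.41 ± 0.13. Without mouse 2, 14 translation factors were called toward short tails. Toward long tails there were 0 without mouse 1 or mouse 2 and 5 without mouse 3. Eif4e had 6.44, 6.58 and 6.31 in ELUTED, against 5.77, 6.09 and 6.14 in WASH, and both fractions were close to the background. Aminoacyl-tRNA synthetases, which charge transfer RNAs, lay at a median of −0.32, with 15 of 29 called toward short tails (7 without mouse 2) and 2 toward long tails (1 without mouse 1, 0 without mouse 2, 5 without mouse 3).

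Protein turnover and folding followed the same direction in part. The proteasome, which degrades ubiquitin-tagged proteins, had 33 of 44 genes called toward short tails and 0 toward long tails, with a median of −0.62. Psmb1, a subunit of its catalytic ring, had 8.72, 8.67 and 9.16 in ELUTED, against 10.22, 10.07 and 10.26 in WASH. The ratio of Psmb1 was −1.34 ± 0.21 (SD, n = 3, adjusted p = 1.4e-05), and the assembly chaperones Psmg2 and Psmg4 stood at −1.42 and −1.33. The immunoproteasome subunit Psmb9 (0.14 ± 0.35) and the activator Psme3 (0.14 ± 0.19) were the members above 0, and neither was called.

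Chaperones were called toward short tails in 48 of 76 cases and toward long tails in 0, with a median of −0.40, and 26 were called toward short tails without mouse 1 and 23 without mouse 2. The mitochondrial co-chaperone Dnajc15 and the prefoldin subunit Pfdn1 had the smallest p, at −1.40 and −1.39. Enzymes upstream of the proteasome stood nearer to the middle. The ubiquitin-conjugating enzymes had a median of −0.22 (10 of 30 short, 3 long). The substrate adaptors with F-box or Kelch names stood at −0.15 (23 of 66 short, 14 without mouse 2, and 3 long), and above 0 after the further quantile normalization. The short-tail shares of both lists, 33.3% and 34.8%, were below the 36.7% of all genes. The ubiquitin-specific proteases, which remove ubiquitin, stood at −0.34 (19 of 36 short, 10 without mouse 2, and 2 long). Glycolysis had a median of −0.17, that of all genes. Of its 13 members 4 were called toward short tails (1 without mouse 1 and 1 without mouse 2), among them Tpi1 at −0.57 and Eno2 at −0.48. This share was 30.8%, beside 36.7% of all genes.

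Translocases and metabolite carriers of mitochondria formed 1 list with a median of −0.38, with 27 of 51 genes called toward short tails and 2 toward long tails (1 without mouse 1 or mouse 2). The members with the smallest p were small parts of the import machinery, Timm10 at −1.37, Tomm5 at −1.36 and Timm8b at −1.22. The genes called toward long tails were carriers of the inner membrane, Slc25a42 at 0.61 ± 0.24 and Slc25a23 at 0.35 ± 0.13.

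RNA-processing genes differed by family. The core proteins of spliceosomal particles and their Lsm relatives had a median of −0.61, with 17 of 23 called toward short tails and 0 toward long tails. Snrpb2, a U2 protein, stood at −1.41 ± 0.41 and Lsm3 at −1.29 ± 0.14 (SD, n = 3). The regulators of splice site choice, SR proteins and hnRNPs, had a median of −0.33, with 12 of 25 short (7 without mouse 1, 5 without mouse 2) and 2 long (1 without mouse 1, 0 without mouse 2). Srsf1 stood at −1.09 ± 0.52, whereas Hnrnpa3 stood at 0.46 ± 0.03. Hnrnpa3 had 11.33, 11.17 and 10.95 in ELUTED, against 10.89, 10.68 and 10.50 in WASH, and every mouse gave nearly the same ratio. Hnrnpab was called toward long tails at 0.33, but the mean of all its probe sets was −0.14.

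Genes that make and remove tails were listed separately. Of 19 deadenylase subunits and recruiters, 10 were called toward short tails and 0 toward long tails, with a median of −0.36, and without mouse 1 or mouse 2 the short-tail calls were 4 and 3. Cnot7, a catalytic subunit of the CCR4-NOT complex, had 8.24, 8.25 and 9.10 in ELUTED, against 9.19, 9.43 and 9.35 in WASH, a ratio of −0.79 ± 0.48 (SD, n = 3). Cnot1, its scaffold, stood at −0.61 and the recruiter Btg1 at −0.60. Poly(A) polymerases, cleavage factors and poly(A)-binding proteins had a median of −0.15, which was above 0 after the further quantile normalization, with 8 of 26 called toward short tails (30.8%, beside 36.7% of all genes), 0 toward long tails and Papolg lowest at −1.23. The cytoplasmic poly(A)-binding protein gene Pabpc1 stood at 0.10 ± 0.09 and its nuclear counterpart Pabpn1 at 0.19 ± 0.04, and neither was called.

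The CPEB genes themselves were not alike. Cpeb4 had 7.25, 7.25 and 7.02 in ELUTED, against 8.02, 8.32 and 7.79 in WASH, and its ratio was −0.87 ± 0.17 (SD, n = 3, adjusted p = 0.00014). Its second probe set gave −1.15, with −1.59, −1.63 and −0.22 in mice 1, 2 and 3, and it is set mainly by mice 1 and 2. No source used here states whether these probe sets read the transgene, the endogenous gene or both. Both probe sets of Cpeb2 were called toward short tails (−1.07 and −0.69), although Cpeb2 was above the nonspecific controls in 1 of 3 ELUTED arrays. In mice 1, 2 and 3 the first gave −1.47, −1.55 and −0.20, and the second −0.67, −1.18 and −0.22. Both are thus set mainly by mice 1 and 2. Cpeb1 was not called (−0.33 ± 0.42), and the probe sets of Cpeb3 disagreed, with 0.34 (adjusted p = 0.041) and −0.17 (adjusted p = 0.26).

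Most histone mRNAs made in S phase end in a stem-loop and carry no poly(A) tail. Their list of 13 tested genes had 6 called toward short tails and 0 toward long tails, and a median of −0.31. H2bc4 had 7.33, 6.68 and 7.99 in ELUTED, against 8.51, 8.70 and 9.31 in WASH. The list's level in both fractions was below that in total RNA, by 1.27 in ELUTED and by 0.55 in WASH at the median, a gap that no other list reached in either fraction.

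Lists of neuronal membrane and synapse genes differed from each other. Calcium, sodium and HCN channels had a median of 0.18, with 9 of 31 called toward long tails and 7 toward short tails, beside 13% and 36.7% of all genes, and 8 lay among the 1198 highest genes. Without mouse 1 only 1 of them was called toward long tails, and without mouse 2 there were 4, while the medians were 0.14 and 0.20. Cacna1e, the pore of R-type calcium channels, had 10.63, 10.45 and 10.28 in ELUTED, against 9.65, 9.75 and 9.84 in WASH. The ratio of Cacna1e was 0.70 ± 0.27 (SD, n = 3, adjusted p = 0.00085). Cacna1b and Cacna1c, pores of N-type and L-type channels, stood at 0.51 and 0.49.

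The same list held clear exceptions. Scn3a, a sodium channel pore gene, had 6.89, 7.32 and 8.11 in ELUTED, against 8.30, 8.66 and 8.54 in WASH, a ratio of −1.06 ± 0.55 (SD, n = 3). The auxiliary calcium channel subunit Cacnb4 stood at −0.83. Potassium channels were spread just as widely around a median of −0.07, which was above 0 after centring, after the further quantile normalization and without the filter, with 9 of 54 called toward long tails (3 without mouse 1, 5 without mouse 2, 15 without mouse 3) and 13 toward short tails (8 without mouse 1 or mouse 2). Kcnj6, a G protein-gated channel, stood at 0.85 ± 0.30 and Kcnc2, a channel of fast-spiking neurons, at −1.10 ± 0.71.

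Ionotropic glutamate receptors, which carry fast excitation, had a median of 0.11 with 5 of 16 called toward long tails (2 without mouse 1 or mouse 2) and 3 toward short tails (0 without mouse 1, 1 without mouse 2). Grin2b, an NMDA receptor subunit, had 10.31, 10.21 and 10.05 in ELUTED, against 9.39, 9.42 and 9.71 in WASH, a ratio of 0.68 ± 0.30 (SD, n = 3, adjusted p = 0.0012). Grik3 and Grin2a stood at 0.53 and 0.43. On the other side were Grin3a at −0.39, Grik2 at −0.36 and Grik1 at −0.39, the last of which was 0.11 as the mean of all its probe sets. Metabotropic glutamate receptors, which signal through G proteins, lay at a median of −0.32, with 3 of 6 called toward short tails, Grm7 lowest at −0.94.

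GABA receptor genes had 3 of 9 called toward short tails and 1 toward long tails (33.3% and 11.1%, beside 36.7% and 13% of all genes). Gabra5 stood at −0.91 and Gabrg3 at 0.69. Postsynaptic scaffolds had 5 of 21 called each way and a median of 0.02, which was below 0 without mouse 1 and with each gene's probe sets averaged. Without mouse 1, 0 scaffolds were called toward long and 3 toward short tails, and without mouse 2 there were 2 and 3. The long-tail side of the scaffolds held Dlgap1 at 0.51, Homer2 at 0.44 and Shank1 at 0.44, and the short-tail side held Lin7b, Lin7c and Dlg1, all between −0.67 and −0.65. Of 17 active zone genes, 1 was called toward long tails and 3 toward short tails (5.88% and 17.6%, beside 13% and 36.7% of all genes). Their median of 0.02 was below 0 without mouse 3 and with each gene's probe sets averaged. Erc2 at −0.71 and Rims3 at −0.39 were on the short-tail side. The call toward long tails was Bsn, which encodes the giant scaffold Bassoon. Bsn had 10.42, 10.67 and 10.56 in ELUTED, against 9.45, 9.91 and 9.99 in WASH, a ratio of 0.77 ± 0.20 (SD, n = 3).

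Synaptic adhesion genes reached both ends of the range, between −1.21 (Lrrtm1) and 1.40 (Lrtm1). Of 32, 4 were called toward long tails (2 without mouse 1) and 9 toward short tails. The shares were 12.5% and 28.1%, beside 13% and 36.7% of all genes. Nlgn1, a postsynaptic neuroligin, had 7.46, 7.40 and 6.71 in ELUTED, against 5.98, 6.41 and 5.81 in WASH, a ratio of 1.12 ± 0.31 (SD, n = 3, adjusted p = 5.1e-05). In 1 of the 3 WASH arrays Nlgn1 was not above the nonspecific controls. Vesicle and SNARE genes had 33.9% called toward short and 11.3% toward long tails, close to the 36.7% and 13% of all genes. Of these 62 vesicle and SNARE genes, 21 were called short (13 without mouse 1, 11 without mouse 2) and 7 long (1 without mouse 1 or mouse 2). Their lowest member, Vamp8, had 8.10, 7.06 and 7.58 in ELUTED, against 9.75, 8.96 and 9.01 in WASH, a ratio of −1.66 ± 0.23, while the synapsin gene Syn3 stood at 0.62 ± 0.04.

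Genes associated with autism had a median of 0.10. Of 44 tested, 11 were called toward long tails and 7 toward short tails, 9 were among the 1198 highest genes and 0 among the 1198 lowest. Without mouse 1 the calls were 5 and 3, without mouse 2 they were 7 and 2, and without mouse 3 the short-tail calls were 11. Tsc1, a brake on the mTORC1 kinase, had 9.38, 8.39 and 8.18 in ELUTED, against 8.35, 7.41 and 7.35 in WASH. Its levels differed between mice, but within each mouse the ratio was close to 1 (0.94 ± 0.10, SD, n = 3, adjusted p = 6.9e-05), with 1.02, 0.97 and 0.83. Fmr1, Ptchd1 and Pogz had the smallest p on the short-tail side, at −0.68, −0.60 and −0.58. Ptchd1 was above the nonspecific controls in only 1 of 3 ELUTED arrays.

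Chromatin remodelers and histone modifiers had as many calls toward long as toward short tails, 17 each of 86, and a median of −0.01, which was above 0 after centring, after the further quantile normalization and without mouse 3. Without mouse 1 the calls were 11 toward long and 9 toward short tails, and without mouse 2 the short-tail calls were 8. The 1198 highest genes held 16 of them and the 1198 lowest held 3. Chd7, a chromodomain remodeler, had 8.68, 8.32 and 8.18 in ELUTED, against 7.81, 7.64 and 7.45 in WASH, a ratio of 0.76 ± 0.10 (SD, n = 3). Nipbl, the cohesin loader, stood at 0.68 ± 0.03, but at −0.06 as the mean of all its probe sets. Kat6b, a histone acetyltransferase, was not above the nonspecific controls in any WASH array, and in 2 of 3 ELUTED arrays it was, with an ELUTED mean at least 1.18-fold higher. On the short-tail side, the remodeler Smarca5 had ratios of −0.98, −0.97 and −0.99. Zinc finger genes of the Zfp series lay close to all genes, with 18 of 174 called toward long tails (4 without mouse 1, 7 without mouse 2, 29 without mouse 3), 54 toward short tails (35 without mouse 1, 28 without mouse 2) and a median of −0.11 that was above 0 after the further quantile normalization.

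Long noncoding RNAs formed the upper end. A list of 15 tested nuclear and antisense RNAs had a median of 0.33, with 8 called toward long tails (4 without mouse 1), 3 toward short tails and 6 among the 1198 highest genes. Kcnq1ot1, an imprinted RNA antisense to Kcnq1, had 9.64, 9.64 and 8.99 in ELUTED, against 8.02, 8.24 and 8.07 in WASH, a ratio of 1.31 ± 0.36 (SD, n = 3, adjusted p = 2.8e-05). Airn, an imprinted RNA antisense to Igf2r, and Srrm4os stood at 0.98 and 0.91. No source used here states that the amplified cDNA kept the strand, so an antisense RNA and its partner may not be told apart. Pantr1 was the opposite, at −1.25 ± 0.22, with Tug1 at −0.50 and Pvt1 at −0.49.

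Host genes of small nucleolar RNAs, which are also noncoding, were mostly at the other end. Of 8 tested, 5 were called toward short tails and 1 toward long tails, with a median of −0.69. Snhg8 had 9.90, 9.16 and 10.03 in ELUTED, against 11.27, 10.97 and 11.21 in WASH, a ratio of −1.45 ± 0.33 (SD, n = 3), and Snhg11 stood at 0.39 ± 0.04.

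Marker genes of cell types were examined because the tissue holds many cell types. Among the microglial markers, 13 of 16 were called toward short tails and 0 toward long tails, with a median of −0.52, and without mouse 1 or mouse 2 the short-tail calls were 7 and 8. Tyrobp, a signalling adaptor of microglia, had 8.996, 8.17 and 8.30 in ELUTED, against 10.39, 9.96 and 9.61 in WASH, a ratio of −1.50 ± 0.26 (SD, n = 3, adjusted p = 1e-05). The complement genes C1qa and C1qc stood at −1.22 and −0.99. Tyrobp in total RNA was 10.52, 9.31 and 8.65, and Gfap, the intermediate filament of astrocytes, 12.75, 12.17 and 10.51, so mouse 1 had the highest level of both. In bulk tissue, fewer cells of a type and less RNA per cell cannot be told apart.

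Astrocyte markers had a median of −0.28, with 9 of 19 called toward short tails and 2 toward long tails. Fabp7 and Apoe, which carry lipids, stood at −1.40 and −0.93, whereas both glutamate transporter genes were on the long-tail side. Slc1a2 had 12.74, 12.78 and 12.50 in ELUTED, against 12.33, 12.38 and 12.27 in WASH, a ratio of 0.35 ± 0.10 (SD, n = 3), and Slc1a3 stood at 0.64 ± 0.27. Oligodendrocyte markers had a median of −0.23, with 8 of 19 called toward short tails (42.1%, beside 36.7% of all genes) and 1 toward long tails. Endothelial and mural markers had a median of −0.34 (10 of 17 short, 6 without mouse 1 or mouse 2, and 1 long). The tight junction gene Cldn5 stood at −1.03 and the receptor gene Flt1 at 0.30.

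Of 24 striatal genes, 6 were called toward short tails (1 without mouse 1, 2 without mouse 2, 10 without mouse 3) and 1 toward long tails. The shares, 25% and 4.17%, were below the 36.7% and 13% of all genes. The median of the list was −0.21, beside −0.17 for all genes. Rgs9, a regulator of G protein signalling in striatum, had 9.68, 9.49 and 9.56 in ELUTED, against 8.14, 8.54 and 8.73 in WASH, a ratio of 1.11 ± 0.38 (SD, n = 3, adjusted p = 8e-05). Tac1, the precursor of substance P, had 7.25, 7.29 and 8.50 in ELUTED, against 8.84, 9.33 and 9.20 in WASH, a ratio of −1.44 ± 0.68. Interneuron genes and neuropeptides had 11 of 21 called toward short tails (5 without mouse 1, 6 without mouse 2) and 1 toward long tails (4 without mouse 3), with the calcium buffer Pvalb at −1.32 ± 0.25. Cortical projection neuron genes had a median of −0.17, the same as all genes.

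The tissue label was borne out by most defining markers. In total RNA the cortical glutamate transporter gene Slc17a7 lay between 11.13 and 11.49, and the striatal genes Penk and Ppp1r1b between 10.38 and 10.96. Neurod6 of cortical projection neurons and Drd2 of striatal neurons were above the nonspecific controls in 0 of 3 INPUT arrays. Drd2 was above them in all 3 ELUTED and all 3 WASH arrays, where the controls stood lower. The brightest control of mice 1, 2 and 3 was at 7.51, 7.52 and 7.24 in INPUT, against 5.83, 6.29 and 5.64 in ELUTED. It was at 5.75, 5.72 and 6.03 in WASH. Drd2 itself stood at 6.61, 6.70 and 7.05 in INPUT, 6.56, 6.89 and 7.22 in ELUTED, and 7.17, 7.18 and 7.62 in WASH. In total RNA Ttr, a gene of choroid plexus, stood at 12.05, 8.81 and 11.38 in mice 1, 2 and 3. Folr1 and Kl of the same tissue were not above the controls in any of those INPUT arrays.

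Features outside function also moved with the tail ratio. Of 437 genes annotated as lncRNA by RefSeq, 44.9% were called toward long tails and 12.4% toward short tails, against 11.4% and 37.9% of 11399 protein-coding genes. The medians were 0.28 for lncRNAs and −0.19 for protein-coding genes. Probe sets with no gene entry, 7468 in number, stood at a median of 0.15 against −0.18 for probe sets of 1 gene, and they made up 53.7% of the calls toward long tails and 19.3% of those toward short tails.

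Total RNA level was related too. In 5 groups of equal size by the INPUT level of transgenic mice, low to high, the median ratio of genes was 0.13, −0.09, −0.29, −0.32 and −0.20. The rank correlation across genes was −0.24, a description over genes that share the same 9 arrays. The difference between biotypes was present inside these groups. In the lowest group, the median was 0.32 for 218 lncRNAs and 0.10 for 2120 protein-coding genes. In the third group it was 0.29 for 45 lncRNAs and −0.29 for 2326 protein-coding genes. In the highest group it was 0.12 for 21 lncRNAs and −0.20 for 2364 protein-coding genes.

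**Figure D4:**
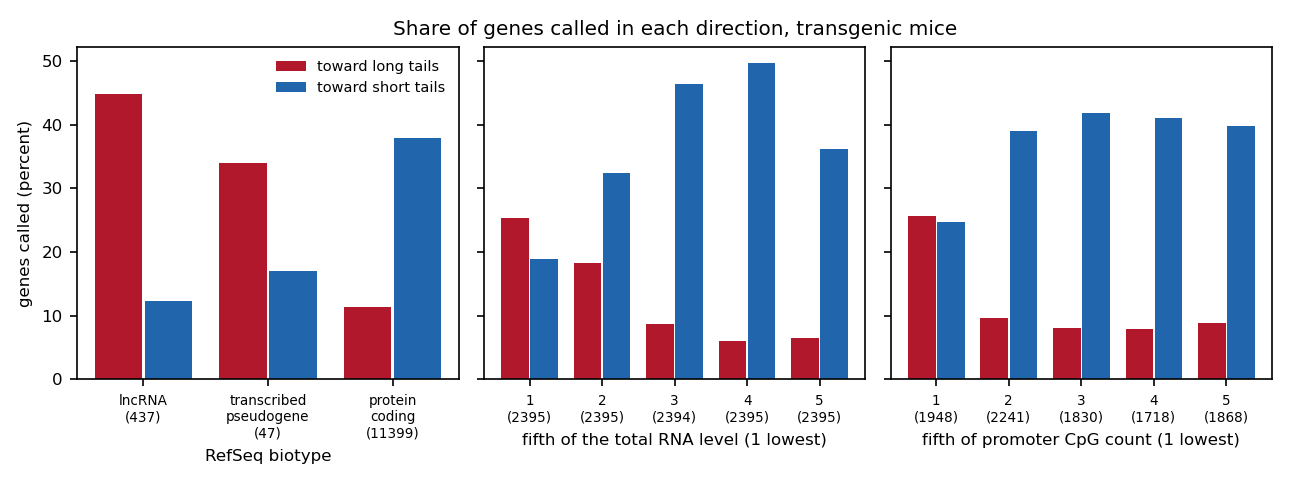
Percent of genes called toward long tails (red) and toward short tails (blue) in transgenic mice, by RefSeq biotype, by 5 groups of the total RNA level and by 5 groups of the number of CpG dinucleotides in the 250 bases before the start, with the number of genes in brackets. LncRNAs are called toward long tails in 44.9% of cases against 11.4% for protein-coding genes, and the lowest groups of level and CpG count have the highest share of long-tail calls.

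Longer protein-coding genes lay slightly higher at the median. The median ratio was −0.29 for genes spanning up to 3000 bases, −0.17 between 30000 and 100000 bases and −0.08 above 300000 bases, and the rank correlation with span was 0.08 across genes. Genes up to 3000 bases also had the largest shares called in both directions, 18.1% toward long and 47.4% toward short tails. Their quartiles were −0.69 and 0.24. The promoters of the 9605 genes with an entry in the RefSeq table were also read, in the 250 bases before the start. In 5 groups by their CpG count, low to high, the median ratio was 0.04, −0.20, −0.24, −0.24 and −0.22.

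The short sequence CCGGAAG, the core of ETS-factor sites, was searched in that window as CCGGAAG or, for the other strand, CTTCCGG. It was present in 7.05% of all 27025 promoters and in 12.3% of those of tested genes. It was present in 15.7% of genes called toward short tails, 6.68% of genes called toward long tails and 11.1% of genes not called. Among lists, 17 of 55 cytosolic ribosomal protein promoters (30.9%) and 10 of 37 proteasome promoters (27.0%) had it, against 2 of 30 for complex I (6.67%) and 0 of 24 for calcium, sodium and HCN channels. The share therefore did not follow the order of the list medians, since complex I had the lowest median. A match is a string of letters and no measured binding.

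The last 50 bases before the start were searched in called genes named by rule that have 1 promoter entry, with 1 chromosome left out. Of the 9 genes found to hold the string there, 6 are shown. The stretches are from RefSeq's GRCm38.p6, 5′ to 3′ on the strand of the gene, with the string or its reverse complement in capitals. They show where the string lies in short-tail genes of different roles, and in 1 long-tail gene, Klhl32, for contrast. Nhp2, chr11:51619723-51619772 (+), and Snrpb2, chr2:143063019-143063068 (+), belong to RNA-protein particles, and Timm10, chr2:84826971-84827020 (+), and Timm8b, chr9:50603851-50603900 (+), to mitochondrial import. Ndufb7, chr8:83566708-83566757 (+), is a complex I subunit with a ratio of −0.92, and Klhl32, chr4:24851125-24851174 (−), a Kelch gene with a ratio of 0.66.
Nhp2: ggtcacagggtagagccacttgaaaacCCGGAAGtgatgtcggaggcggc
Snrpb2: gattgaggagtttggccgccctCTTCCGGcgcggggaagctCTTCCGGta
Timm10: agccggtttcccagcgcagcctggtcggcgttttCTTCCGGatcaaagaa
Timm8b: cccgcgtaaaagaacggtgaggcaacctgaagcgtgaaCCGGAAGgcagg
Ndufb7: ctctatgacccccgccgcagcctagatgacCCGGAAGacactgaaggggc
Klhl32: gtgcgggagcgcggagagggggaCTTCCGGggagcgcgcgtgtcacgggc

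Different probe sets of 1 gene can read different transcript ends, and they did not always give the same answer. Of 4622 genes with 2 or more tested probe sets, 953 had all of them called toward short tails, 117 had all called toward long tails and 282 (6.1%) had calls in both directions. The median gap between the highest and lowest probe set of a gene was 0.35. Among examples chosen after their values were seen, the 2 probe sets of Cox16, an assembly factor of complex IV, stood at 1.49 ± 0.17 and −0.65 ± 0.26 (SD, n = 3), both called. Those of the ubiquitin ligase gene Herc4 stood at 1.11 ± 0.19 and −0.77 ± 0.33. A ratio given for a gene here is therefore that of its brightest probe set.

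In control mice the same ratio gave a similar order of genes on a wider scale. The mean ratios of the transgenic and control mice correlated at 0.863 across genes, and the slope of the control on the transgenic ratio was 1.53. Complex I had medians of −0.97, −1.02 and −0.72 in transgenic mice 1, 2 and 3, against −2.42, −1.39 and −2.44 in control mice. The proteasome stood at −0.60, −0.62 and −0.45 in transgenic mice, against −2.19, −0.64 and −1.68 in control mice. Control mouse 2 was close to the transgenic mice in the proteasome list, and mice 1 and 3 were not. Of 52 lists, 43 had a control median further from 0 than the transgenic one, and 44 had both medians on the same side of 0.

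In limma, 0 of 27022 probe sets (0%) passed the threshold for a difference of the tail ratio between genotypes, and no adjusted p was below 0.37. By the unadjusted p, 3621 lay under 0.05 (13.4%), with the ratio higher in transgenic mice for 2413 (8.93%) and lower for 1208 (4.47%). Without control mouse 2, 2487 probe sets passed the adjusted threshold, 1958 of them higher in transgenic mice. The SD of the ratio over probe sets was 0.614, 0.621 and 0.388 in transgenic mice, against 1.19, 0.593 and 0.859 in control mice. Control mouse 2, whose omission changed the count, had the smallest spread of the 3 control mice. The 3′ minus 5′ signal of actin in ELUTED was −0.74, −0.75 and −0.69 in transgenic mice, against −1.08, −0.66 and −0.96 in control mice. That of pyruvate carboxylase was 0.19, 0.025 and 0.50 in transgenic mice, against 0.84, 0.10 and 0.57 in control mice. The brightest nonspecific control of those arrays stood at 5.83, 6.29 and 5.64 in transgenic mice, against 7.30, 5.53 and 6.11 in control mice. The SD of the log2 values of the same arrays was 1.85, 1.82 and 1.91 in transgenic mice, against 1.70, 1.81 and 1.77 in control mice. The ELUTED arrays of control mice 1 and 3 thus stood apart from the other 4 by the actin measure, and their part in the wider control ratios was not tested.

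The genes with the smallest p for a higher ratio in transgenic mice all stood on the short-tail side. Ndufb7 had ratios of −0.93, −0.97 and −0.88 in transgenic mice, against −1.93, −2.03 and −2.32 in control mice, a difference of 1.17 (adjusted p = 0.37). Tyrobp stood at −1.39, −1.79 and −1.31 in transgenic mice, against −2.999, −2.50 and −3.32 in control mice. Both genes were on the short-tail side in each of the 6 mice. They were picked by the smallest p of this difference, so the separation of the genotypes follows from the choice. Rpl31, Mrpl13 and the pseudogene Rpl31-ps12 completed the 5, with differences between 1.18 and 1.60.

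The genes with the smallest p for a lower ratio in transgenic mice included some that were near or above 0 in controls. Mia stood at −1.80, −1.38 and −0.72 in transgenic mice, against 0.31, −0.29 and −0.25 in control mice, and Kcnq3, a subunit of neuronal M-channels, at 0.05, −0.09 and −0.04 against 0.96, 0.53 and 1.12. Neither difference passed (adjusted p = 0.37 each). Tmem212, A2m and Gpr173 were the others, with differences of −1.14, −0.76 and −0.93.

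**Figure D5:**
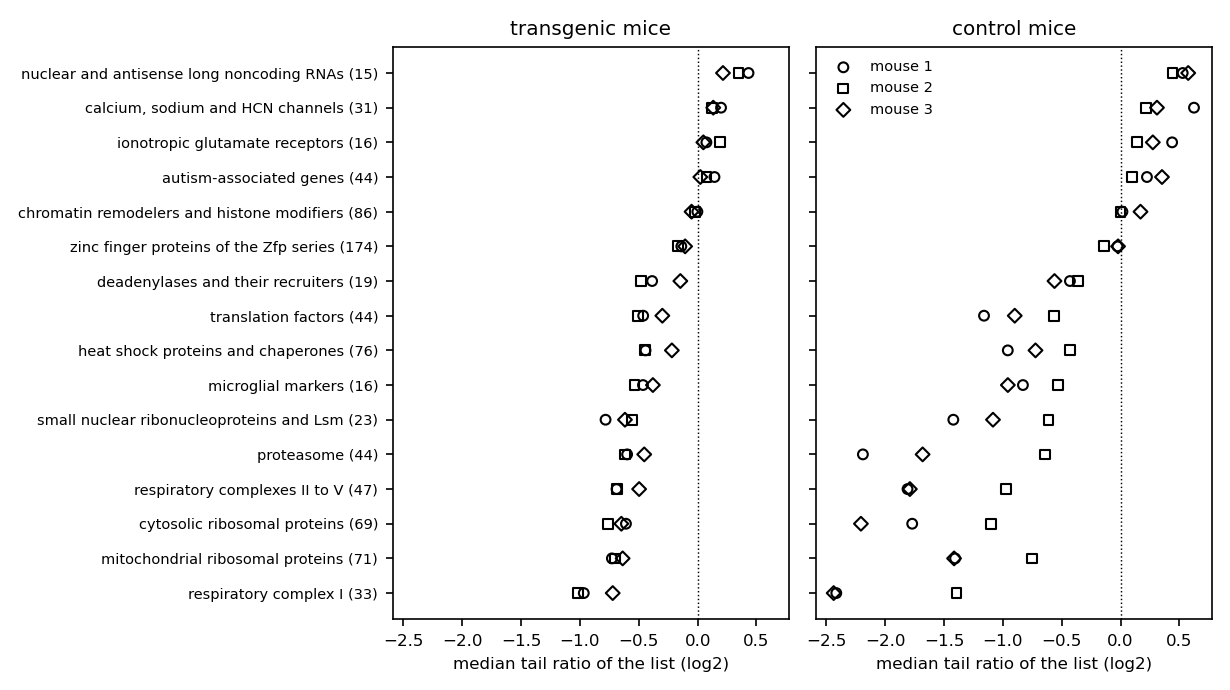
Median tail ratio (log2) of 16 gene lists in each transgenic mouse (left) and each control mouse (right), with 1 symbol for each mouse and the number of genes in brackets. Complex I has medians of −0.97, −1.02 and −0.72 in transgenic mice, against −2.42, −1.39 and −2.44 in control mice, and the order of the lists is similar in both panels.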

How the data were processed

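The deposited values are on a log2 scale, 1 per probe set and array, and come from RMA run by the authors (per the submitters' processing notes, which name no version here). RMA corrects background, normalises arrays toward a common distribution and summarises probes, so a change common to most RNAs of a fraction cannot be read from the values. The deposited arrays still differed in spread and median. Per the labels' protocols, cDNA from 5 ng of RNA underwent 21 amplification cycles and 8 µg of it were labelled, which can compress or stretch differences. The design text names Mouse PrimeView arrays, whereas the probe sets match a perfect-match array of another design, whose annotation was used. No depth applies to arrays, and their number limits the precision.

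Probe sets with a mean over 18 arrays above percentile 40 (5.95 on the log2 scale) were kept. ELUTED minus WASH was taken within each mouse, a pairing given by the labels, and the 3 transgenic mice were fitted alone with limma 3.58.1 in R 4.3.3, with Benjamini-Hochberg adjustment over 27022 probe sets (two-sided, threshold 0.05). The genotype difference was fitted over 6 mice. Of 45037 probe sets, 28898 had 1 gene, 551 several and 15588 none. Nonspecific control probe sets (23) gave each array's background. Genes were named as the 10 highest and 10 lowest called ratios with 1 sign in 3 mice, up to 3 members a list and direction with the smallest p, every CPEB probe set, and 5 a direction by p for the genotype difference. The members and the lists were chosen with earlier results of these data known, and some list patterns were later fitted to the annotation's symbols, one of them by leaving the antisense RNA Kcnq1ot1 out of the potassium channels. In data simulated for the transgenic comparison with 27022 probe sets, 50 of 50 shifts of 1 were recovered in each direction, and of 50 shifts of 0.5 each, 14 upward and 8 downward. Other filters, scalings, spread estimates and omissions of mice were tried.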

Additional observations from a re-analysis of the deposited data

Results flagged for a closer look

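Among the genes named here, 3 had ratios of opposite sign in the 2 genotypes in every mouse. Of these, A2m and Gpr173 had been picked by the smallest p for the genotype difference. A2m, a protease inhibitor gene, stood at −0.65, −0.30 and −0.24 in transgenic mice, against 0.33, 0.26 and 0.51 in control mice. Its difference of −0.76 did not pass the test over all probe sets (adjusted p = 0.37). The level of A2m in total RNA of the transgenic mice was 10.53, 7.56 and 7.22, with mouse 1 far above the others. Gpr173, an orphan receptor gene, stood at −0.23, −0.41 and −0.01 in transgenic mice, against 0.90, 0.31 and 0.92 in control mice, a difference of −0.93 (adjusted p = 0.37). Ntsr2, a neurotensin receptor gene of astrocytes, stood at 0.19, 0.02 and 0.03 in transgenic mice, against −0.02, −0.04 and −0.14 in control mice, a difference of 0.15 (adjusted p = 0.67).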

How the results depend on the processing

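No named gene with a call changed direction under any filter, scaling, spread estimate or omission of a mouse, but the number of calls varied. Toward long tails, 2581 probe sets and 825 genes were called with the filter at percentile 60, and 8668 probe sets with no filter. With the spread shared by all 6 mice, 3441 probe sets were called toward long and 5160 toward short tails, with 778 and 2452 genes. With no replicate block, that is with the fractions of a mouse not paired, 3874 probe sets were called toward long and 5720 toward short tails, with 923 and 2740 genes. After a further quantile normalization, 5932 probe sets and 2707 genes were called toward short tails. Leaving out 1 transgenic mouse in turn gave 3080 to 7069 probe sets and 542 to 2309 genes toward long tails, and 5396 to 10664 probe sets and 2574 to 5178 genes toward short tails. The smallest counts came without mouse 2 and the largest without mouse 3, while without mouse 1 the counts were 3161 and 6033 probe sets and 681 and 2861 genes. For the genotype difference, leaving out 1 mouse gave 0 to 2487 probe sets past the threshold, and only the omission of control mouse 2 gave more than 0. With each gene's probe sets averaged, Cnot6l stood at −0.46 (0.06 with its brightest probe set), Grik1 at 0.11 (−0.39), Hnrnpab at −0.14 (0.33), Hnrnpd at −0.40 (0.23), Nipbl at −0.065 (0.68) and Nr4a3 at −0.10 (0.35), and the cause was not tested. Of the named genes, 65 lost their call with the spread of 6 mice, 64 with no replicate block, 54 without mouse 1 and 57 without mouse 2. The median of 39 of the 52 lists had the same sign under all settings. Background limited genes that were above the nonspecific controls in fewer than 3 arrays of a fraction, and their ratios may understate the difference.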

Other observations

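Several groups outside the main classes were near the middle of the range. Immediate early genes had a median tail ratio of −0.27, with 9 of 25 called toward short tails (5 without mouse 1, 4 without mouse 2) and 3 toward long tails (1 without mouse 2). The shares, 36% and 12%, were close to the 36.7% and 13% of all genes. Dusp6, a phosphatase of ERK kinases, had the smallest p, at −1.36 ± 0.68 and the nuclear receptor gene Nr4a2 stood at 0.49 ± 0.09 (SD, n = 3). Of 16 clock genes, 3 were called toward long tails (1 without mouse 1 or mouse 2) and 3 toward short tails (5 without mouse 3). Each share was 18.8%, beside 13% of all genes toward long and 36.7% toward short tails. Arntl, which encodes BMAL1, had 8.13, 7.91 and 7.96 in ELUTED, against 7.05, 6.94 and 7.25 in WASH, a ratio of 0.92 ± 0.20, while Clock, whose protein is its partner, had 8.59, 8.51 and 8.73 in ELUTED, against 9.10, 9.16 and 9.22 in WASH, a ratio of −0.55 ± 0.09. These 2 genes were thus called in opposite directions, and each kept its sign in all 3 mice.

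Kinesins had 6 of 27 called toward short tails (3 without mouse 1 or mouse 2) and 4 toward long tails (2 without mouse 1 or mouse 2), with Kif24 at 0.92 and Kif13a at −0.82. Rab GTPases had 14 of 45 called toward short tails and 2 toward long tails (1 without mouse 1, 0 without mouse 2, 4 without mouse 3), with Rab24 at −0.93 and Rab3c, a synaptic vesicle Rab, at 0.45. Protocadherins and cadherins had 11 of 32 called toward short tails (6 without mouse 1, 5 without mouse 2) and 4 toward long tails (1 and 0). The shares, 34.4% and 12.5%, were close to the 36.7% and 13% of all genes. Toward short tails the kinesins (22.2%), Rab GTPases (31.1%) and CaM kinases and calmodulins (20%) were below all genes. CaM kinases and calmodulins stayed within a narrow range, between −0.38 (Camk1) and 0.22 (Camk1d), with 3 of 15 called toward short tails (0 without mouse 1 or mouse 2, 7 without mouse 3) and 0 toward long tails. Over all genes called toward short tails, the median level relative to total RNA was −0.25 in ELUTED and 0.34 in WASH, and over those called toward long tails it was 0.22 in ELUTED and −0.26 in WASH.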
